A study of Mus musculus with 6 samples.

Results

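The genes described here encode the respiratory chain, the set of 5 protein complexes in the inner mitochondrial membrane, from both of its genomes. Members were chosen by symbol: every gene whose name begins with Nduf, Sdha to Sdhd, Uqcr, Cox4 to Cox8 or Atp5, and every gene whose name begins with mt-, apart from 1 symbol that contains -ps. This gave 113 of 33696 genes, of which 100 are encoded in the nucleus and 13 in mitochondrial DNA. Complex I has 54 of them (47 nuclear and 7 mitochondrial), complex II has 8 (all nuclear), complex III has 9 (8 and 1), complex IV has 23 (20 and 3) and complex V has 19 (17 and 2). The symbol rule also takes in the assembly factors named Ndufaf and Sdhaf, so that the nuclear members divide into 19 core subunits, 68 accessory subunits and 13 assembly factors. The files use older symbols for complex V, and these are kept here (Atp5a1, Atp5b and Atp5g1 to Atp5g3).

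Nuclei were isolated from frozen left ventricle of 12-week-old male mice and single-nucleus RNA was sequenced in 6 libraries, 2 per group. The WT-CD group held wild-type littermates on a control diet. The R403Q-CD group carried the genotype labelled Myh6+/R404Q (R403Q), a missense mutation on 1 allele of the cardiac myosin heavy chain that serves as a mouse model of hypertrophic cardiomyopathy, and ate the same control diet. The R403Q-EMPA group carried the same genotype and ate that diet with empagliflozin, an inhibitor of the sodium-glucose cotransporter SGLT2, at 0.15 mg per g of diet, or about 15 mg per kg body weight. Mice were put on the diets when 9 to 10 weeks old, and none of the 6 libraries is from wild-type mice given the drug. Sampling thus fell 2 to 3 weeks after the diets began; a longer feeding period named in the labels does not match these ages and was not used. Each library is a separate sample, but nothing in the labels says how many mice it holds, so p-values measure the spread between these libraries.

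Electrons enter the chain at complex I from NADH or at complex II from succinate, pass through complex III to complex IV, which reduces oxygen, and the proton gradient built on the way drives ATP synthesis by complex V. Mitochondrial DNA encodes core subunits of complexes I, III, IV and V, whereas every subunit of complex II and all assembly factors are nuclear genes. The heart is among the tissues richest in this machinery, and several subunits of complex IV have a separate isoform for heart and skeletal muscle.

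The files held 69249 barcodes, and 31787308 to 45397128 unique molecular identifiers (UMIs, counts of distinct RNA molecules) per library. Of 68365 barcodes with at least 500 UMIs and 300 genes, 19927 had over 5% of their UMIs from mt- genes and were set aside, and 2433 predicted doublets (3.68 to 6.45% of those left in each library) were removed. The 46005 nuclei kept fell into 25 clusters, and 11 classes could be named from marker genes; each cardiomyocyte-like cluster had 7 or 8 of the 8 cardiomyocyte markers. Cardiomyocyte-like nuclei (6939), fibroblast-like nuclei (14147), endothelial-like nuclei (12492) and pericyte-like nuclei (4647) were tested; 10 classes with at least 20 nuclei in every library were described. The mt- limit acts directly on the 13 mitochondrial members, whose levels below are those of nuclei chosen to have few mt- UMIs. Between 23 and 56 barcode sequences were shared by any pair of libraries. The WT-CD libraries differed most from each other: in all 4 tested classes WT-CD replicate 1 had the higher and WT-CD replicate 2 the lower summed level of nuclear members, and this spread enters every comparison with WT-CD.

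Under the 5% limit, cardiomyocyte-like nuclei had the highest level of nuclear members and the lowest of mitochondrial members; without the limit the mitochondrial order did not hold. Levels are CPM, the UMIs of a gene scaled to the same total in every class and library, uncorrected for gene length, so a value is compared only between classes or libraries for the same gene or group. The 100 nuclear members summed to 6923 ± 943 CPM in cardiomyocyte-like nuclei (mean ± SD, n = 6 libraries), 5329.7 ± 829 CPM in pericyte-like nuclei, 5019 ± 937 CPM in endothelial-like nuclei and 4216 ± 702 CPM in fibroblast-like nuclei. The 13 mitochondrial members summed to 10716 ± 1862 CPM in cardiomyocyte-like nuclei, against 23675 ± 4812 CPM in fibroblast-like, 24694 ± 4882 CPM in pericyte-like and 29564 ± 4109 CPM in endothelial-like nuclei. Both orders of cardiomyocytes held within each of the 6 libraries under the limit. Without it, the nuclear sum stayed highest in cardiomyocyte-like nuclei in every library, but the mt- sum, 28751 ± 9173 CPM there against 37131 ± 9259 CPM in endothelial-like nuclei, was the highest of the 4 tested classes in both R403Q-CD libraries and R403Q-EMPA replicate 1 and the lowest in the other 3 libraries. Under the limit, the nuclear sums of pericyte-like and endothelial-like nuclei overlapped, with the pericyte sum higher in 5 of 6 libraries. The mitochondrial over nuclear ratio was 1.32 to 1.75 in cardiomyocyte-like nuclei and 3.78 to 6.15 in pericyte-like, 4.61 to 7.60 in fibroblast-like and 5.05 to 8.57 in endothelial-like nuclei. The other 6 described classes were near these 3: nuclear sums averaged 4547 (endocardial-like) to 5817 CPM (lymphoid-like) and mt- sums 23470.5 (smooth muscle-like) to 30633 CPM (lymphoid-like). By complex, the mt- genes of complex I summed to 3418 ± 612 CPM in cardiomyocyte-like and 9433 ± 1439 CPM in endothelial-like nuclei, those of complex IV to 5366 ± 914 CPM and 14592 ± 1878 CPM, and those of complex V to 972 ± 182 CPM and 2837 ± 418 CPM.

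Counted per nucleus, the picture differed between the genomes. Nuclear members gave 66.1 ± 9.76 UMIs per cardiomyocyte-like nucleus and 15.9 ± 3.24, 14.6 ± 2.68 and 14.9 ± 2.63 per fibroblast-like, endothelial-like and pericyte-like nucleus. Mitochondrial members gave 102 ± 12.5 UMIs per cardiomyocyte-like nucleus and 87.9 ± 8.89, 85.7 ± 8.30 and 68.1 ± 7.36 in those 3 classes. The number of mt- UMIs per nucleus thus differed less between classes than that of nuclear members, with the pericyte value below the others by more than either SD, although a cardiomyocyte-like nucleus held a median of 6888.5 to 12099.5 UMIs in a library and an endothelial-like nucleus 2116 to 3423. The 5% limit caps this number in nuclei of low depth.

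**Figure D1:**
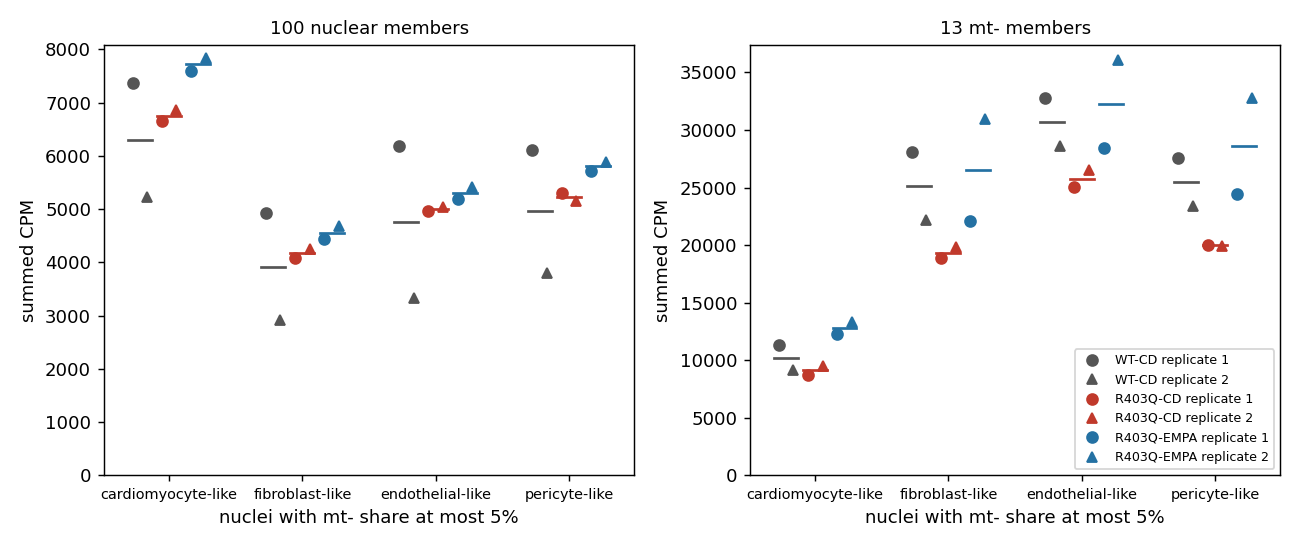
Summed CPM (vertical axis) of the 100 nuclear members (left) and the 13 mt- members (right) in each library of the 4 tested classes, in nuclei with an mt- share of at most 5%; points are libraries and short lines are group means of 2. The nuclear sum is highest and the mt- sum lowest in cardiomyocyte-like nuclei, and the WT-CD libraries lie farthest apart in the nuclear sum of each class.

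The excess of nuclear members in cardiomyocytes was not the same for each complex. Values are for cardiomyocyte-like nuclei against fibroblast-like, endothelial-like and pericyte-like nuclei, in this order (mean ± SD, n = 6 libraries). Complex I summed to 2438 ± 303 CPM, against 1621 ± 219.9, 1805 ± 287 and 1913 ± 243. Complex II, which also belongs to the tricarboxylic acid cycle, summed to 560.2 ± 35.2 CPM, against 246 ± 17.1, 263 ± 21.0 and 301 ± 16.8, the widest gap of the 5 relative to its own level. Complex III summed to 546 ± 75.7 CPM, against 355 ± 60.3, 454 ± 95.5 and 442 ± 84.3. Complex IV summed to 1488 ± 299.9 CPM, against 943 ± 219.6, 1201 ± 285 and 1367 ± 278, so that the spreads of its cardiomyocyte and pericyte levels overlapped, although the pericyte level was the lower in each of the 6 libraries. Complex V, the ATP synthase, summed to 1891 ± 254 CPM, against 1052 ± 191, 1297 ± 251 and 1307 ± 214. By role, core subunits summed to 2220.2 ± 217 CPM, against 999.95 ± 114, 1109.9 ± 154 and 1271 ± 136, whereas accessory subunits summed to 4299.8 ± 686 CPM, against 2916 ± 575, 3645 ± 765 and 3762 ± 686.

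Of the 96 nuclear members with at least 200 UMIs in all, 53 had their highest mean level of the 4 classes in cardiomyocyte-like nuclei (40 of them in all 6 libraries), 32 in endothelial-like (8 in all 6), 9 in pericyte-like (3 in all 6) and 2 in fibroblast-like nuclei. Of these 4 classes, endothelial-like nuclei had the highest level of all 13 mt- genes, 12 of them in every library. Core genes were among those with clear cardiomyocyte excess. Sdha, the flavoprotein of complex II, stood at 197 ± 10.9 CPM in cardiomyocyte-like nuclei and 87.2 ± 3.94 CPM, 92.3 ± 4.93 CPM and 113 ± 12.9 CPM in fibroblast-like, endothelial-like and pericyte-like nuclei. Atp5a1, the alpha subunit of the ATP synthase, stood at 406 ± 55.5 CPM against 124 ± 17.99, 137 ± 17.7 and 154 ± 13.9. Neither gene's cardiomyocyte range overlapped that of another tested class.

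Ndufs1, the largest core subunit of complex I, stood at 162 ± 8.13 CPM in cardiomyocytes and at 71.0 ± 3.42, 64.3 ± 3.96 and 80.8 ± 6.69 in the other 3 classes in the same order. Ndufs4, an accessory subunit known for the mitochondrial disease that its loss causes, was the steadiest between cardiomyocyte libraries of those named here, from 247 to 262 CPM, and ranged over 122 to 140.4 CPM in fibroblast-like, 112 to 139 CPM in endothelial-like and 162 to 185 CPM in pericyte-like nuclei. Ndufaf4, an assembly factor of complex I, had 167 ± 35.4 CPM in cardiomyocyte-like and 23.8 ± 6.38 CPM in endothelial-like nuclei. For other members the cardiomyocyte level was above that of fibroblasts in every library, but not above those of both other classes. Cox4i1, the common form of subunit 4 of complex IV, had 187 ± 43.5 CPM, 138 ± 36.8, 195 ± 49.7 and 171 ± 49.8 in cardiomyocyte-like, fibroblast-like, endothelial-like and pericyte-like nuclei, and within a library it stood at 67.3 to 81.0% of its cardiomyocyte level in fibroblast-like, 97.7 to 119% in endothelial-like and 81.03 to 106% in pericyte-like nuclei. Atp5g1, which with Atp5g2 and Atp5g3 encodes subunit c of the rotor ring, had 77.8 ± 20.7 CPM, 65.5 ± 19.8, 87.6 ± 24.3 and 83.3 ± 24.2, or 73.4 to 95.03%, 98.5 to 149% and 94.3 to 124% of its cardiomyocyte level in the same library.

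A pair of isoforms of complex IV were highest in pericyte-like nuclei, with lower levels in smooth muscle-like nuclei. Cox4i2, the alternative form of subunit 4, had 149 and 119.9 CPM (WT-CD), 129 and 132 CPM (R403Q-CD) and 119 and 142 CPM (R403Q-EMPA) in pericyte-like nuclei. The same gene ranged over 0 to 0.824 CPM in cardiomyocyte-like, 1.51 to 4.45 CPM in fibroblast-like and 1.45 to 3.42 CPM in endothelial-like nuclei, and had 57.6 ± 22.0 CPM in smooth muscle-like nuclei, which are few (232). The levels therefore order as pericyte, smooth muscle, then fibroblast and endothelial, whose ranges overlap, then cardiomyocyte. As a share of the UMIs of Cox4i1 and Cox4i2 together, Cox4i2 took 45.2 and 58.9% (WT-CD), 42.7 and 45.2% (R403Q-CD) and 33.7 and 42.1% (R403Q-EMPA) in pericyte-like nuclei, 16.1 to 30.8% in smooth muscle-like nuclei and at most 2.62% in the other 3 tested classes. UMIs carry no correction for length, so such a share is compared between classes only.

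Ndufa4l2, a paralogue of Ndufa4 known as a gene induced by low oxygen, had a similar order of classes at its upper end. Its level in pericyte-like nuclei was 111 and 76.6 CPM (WT-CD), 85.8 and 86.5 CPM (R403Q-CD) and 99.2 and 102 CPM (R403Q-EMPA). It ranged over 6.84 to 20.6 CPM in fibroblast-like, 1.48 to 2.89 CPM in endothelial-like and 0.461 to 1.65 CPM in cardiomyocyte-like nuclei, and had 51.7 ± 35.5 CPM in smooth muscle-like nuclei. Its share of the pair with Ndufa4, a small subunit of complex IV despite its name, was 56.2 to 69.0% in pericyte-like, 15.0 to 61.1% in smooth muscle-like and 7.81 to 19.8% in fibroblast-like nuclei. Over 60 points (10 classes in 6 libraries, which share libraries and depth), the member whose log2 CPM followed Cox4i2 most closely was Ndufa4l2 (Spearman's rho 0.67), followed by Ndufaf2 (0.41), Ndufc1 (0.33), Cox8a and Ndufs4 (both 0.26).

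Other isoforms of complex IV differed between classes too. Cox6b2, known as the testis form of subunit 6b, had 30.2 ± 11.3 CPM in epicardial-like nuclei, from 18.4 to 41.7 CPM in 27 to 71 nuclei per library, and 5.97 ± 2.81 CPM in myeloid-like nuclei; means of the other 8 classes were at most 3.42 CPM. It rests on 165 UMIs in all, 44 of them in myeloid-like and 33 in epicardial-like nuclei. It took 22.7 to 57.1% of the pair with Cox6b1 in the epicardial and 6.12 to 13.7% in the myeloid class. Cox7b2, a second form of subunit 7b, was highest in cardiomyocyte-like nuclei, at 3.06 and 9.34 CPM (WT-CD), 8.74 and 12.0 CPM (R403Q-CD) and 7.58 and 6.67 CPM (R403Q-EMPA), and reached at most 1.67 CPM in the other tested classes. Among the remaining members, Cox8c and Ndufb11b had 0 UMIs and Ndufb4b had 30. UMIs of Ndufb4 and Ndufb11 and of these near-copies may not be separable in a count matrix.

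The muscle forms of complex IV were not restricted to the cardiomyocyte class in these nuclei. Cox6a2, the heart and skeletal muscle form of subunit 6a, had 147 and 69.1 CPM (WT-CD), 126 and 132 CPM (R403Q-CD) and 126 and 144 CPM (R403Q-EMPA) in cardiomyocyte-like nuclei. In classes that are not muscle it had 112 ± 30.4 CPM (endothelial-like), 111 ± 31.5 CPM (pericyte-like) and 80.5 ± 24.7 CPM (fibroblast-like), ranges that overlap that of cardiomyocytes. Within a library these were 78.7 to 100.4%, 75.1 to 98.6% and 57.4 to 78.8% of the cardiomyocyte level, so that fibroblast-like and pericyte-like nuclei were lower in all 6 libraries, by less than for Sdha and Atp5a1 in fibroblasts (40.8 to 48.9 and 28.3 to 32.7%). Its share of the pair with Cox6a1 was 65.0 to 71.1% in cardiomyocyte-like, 62.6 to 72.5% in fibroblast-like, 65.3 to 75.8% in endothelial-like and 66.2 to 80.3% in pericyte-like nuclei. Cox7a1, the muscle form of subunit 7a, took 15.7 to 20.3% of the pair with Cox7a2 in cardiomyocyte-like and 24.3 to 34.4% in endothelial-like nuclei. Cox8b, the muscle form of subunit 8, took 37.8 to 49.1% and 47.1 to 64.4% of the pair with Cox8a. Among all described classes, each of these muscle forms had its highest mean in lymphoid-like nuclei, not in cardiomyocyte-like nuclei. Lymphoid-like means were 135 CPM (Cox6a2), 52.1 CPM (Cox8b) and 36.1 CPM (Cox7a1). These nuclei are few (469), and held 158 UMIs of Cox6a2, 59 of Cox8b and 42 of Cox7a1. The 5 members nearest to Cox6a2 over the 60 points were Ndufa5 (rho 0.73), Atp5h (0.70), Cox7b (0.69), Uqcrq and Atp5j2 (both 0.68).

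Droplet data can hold free RNA from lysed cells, so cardiomyocyte messages that other cells should lack were read in the other classes. The 10 messages listed for this purpose stood in fibroblast-like nuclei at a median of 24.3% of their cardiomyocyte-like level, and in both endothelial-like and pericyte-like nuclei at 33.8%, with single genes from 1.69 to 81.8%. Nuclear members stood at medians of 74.8, 86.0 and 85.5% and mt- genes at 230.2, 281 and 237%. Set against Mb, the myoglobin message, Cox6a2 had a ratio of 0.317 to 0.505 in cardiomyocyte-like, 0.351 to 0.652 in fibroblast-like, 0.340 to 0.599 in endothelial-like and 0.415 to 0.673 in pericyte-like nuclei. The Cox6a2 to Mb ratio thus overlapped between all 4 classes. This was not particular to a muscle form: the ratio of Cox6a1 was 0.157 to 0.240 in cardiomyocyte-like and 0.169 to 0.251 in fibroblast-like nuclei, that of Atp5b was 0.472 to 0.568 and 0.474 to 0.637, and both overlapped in the other classes too. For mt-Co1, the catalytic subunit of complex IV, the ratio to Mb was 6.41 to 8.39 in cardiomyocyte-like and 19.7 to 40.6 in fibroblast-like nuclei, which do not overlap. How much of any level in non-muscle classes, that of Cox6a2 included, is free RNA was not tested.

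**Figure D2:**
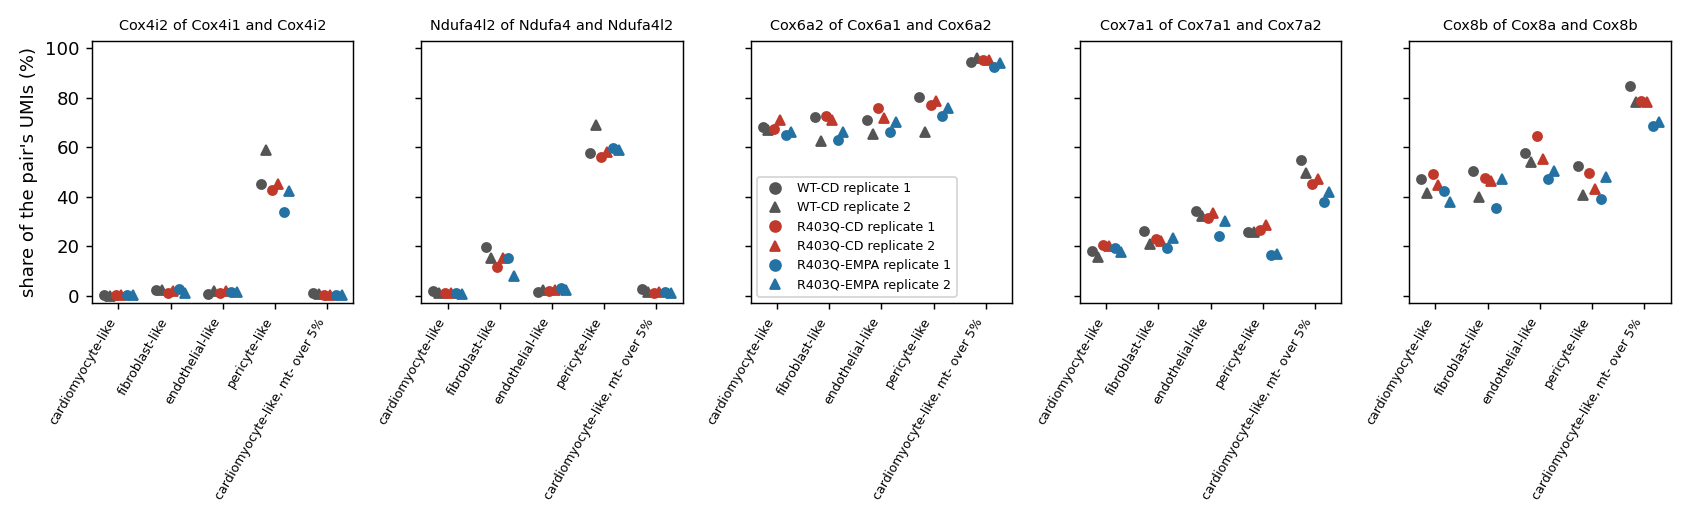
Share of a pair's UMIs (vertical axis, %) taken by Cox4i2, Ndufa4l2, Cox6a2, Cox7a1 and Cox8b in each library of the 4 tested classes and in cardiomyocyte-like barcodes with an mt- share over 5%; points are libraries. Cox4i2 and Ndufa4l2 stand out in pericyte-like nuclei (33.7 to 58.9 and 56.2 to 69.0%), whereas the ranges of Cox6a2 overlap in the 4 classes and it reaches 92.2 to 96.2% in the barcodes over the limit.

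R403Q-CD vs. WT-CD asks what the mutation goes with in untreated hearts. In cardiomyocyte-like nuclei, no member passed the test in either direction. The nuclear sums were 7359 and 5228 CPM (WT-CD), 6651 and 6860.0 CPM (R403Q-CD) and 7599.8 and 7841 CPM (R403Q-EMPA), so the R403Q-CD values lay between those of the WT-CD libraries. The mt- sums were 11286 and 9159.5 CPM (WT-CD), 8755 and 9482 CPM (R403Q-CD) and 12327 and 13289 CPM (R403Q-EMPA), and here too the groups overlapped. By edgeR's quasi-likelihood test 0 of 107 members were called at a Benjamini-Hochberg adjusted p under 0.05, beside 0.0627% of all genes tested. DESeq2 called 0 as well. By the edgeR test 5 members had an unadjusted p under 0.05. Here and below, shares of all genes called are at the adjusted p and are no background for counts at an unadjusted p.

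The median log2 fold change was 0.11 over 94 nuclear members, with 75 above 0, and -0.22 over the 13 mt- genes, all below 0 (range -0.46 to -0.05), beside -0.01 over all genes. By complex the nuclear medians were 0.11, 0.02, 0.17, 0.19 and 0.11 for complexes I to V. All 8 nuclear members of complex III and all 17 of complex V were above 0. In raw CPM both R403Q-CD libraries lay above both WT-CD libraries for 15 of the 94 nuclear members and 0 of 13 mt- genes, beside 17.9% of all genes, and below for 3 nuclear members and 5 mt- genes, beside 14.9% of all genes. The nuclear members' share was thus near the background for higher and below it for lower levels.

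The smallest p-values belonged to complex V and complex I. Atp5o, the stalk subunit OSCP of the ATP synthase, had 67.5 and 45.2 CPM (WT-CD), 71.5 and 78.7 CPM (R403Q-CD) and 89.8 and 81.7 CPM (R403Q-EMPA) (log2 fold change 0.42 ± 0.16 SE, adjusted p = 0.629). Atp5g3 had a log2 fold change of 0.38 ± 0.15 and Ndufb2, an accessory subunit of complex I, of 0.35 ± 0.14 (adjusted p = 0.665 and 0.679). For all 3 the R403Q-CD libraries lay above both WT-CD libraries, by less than the test requires. At the low end stood mt-Nd6, encoded on the light strand, with 21.4 and 16.7 CPM (WT-CD), 12.2 and 15.5 CPM (R403Q-CD) and 20.6 and 24.1 CPM (R403Q-EMPA) (-0.46 ± 0.19), and Ndufaf5, an assembly factor of complex I, with 23.0 and 27.3 CPM (WT-CD), 17.99 and 19.9 CPM (R403Q-CD) and 29.1 and 30.05 CPM (R403Q-EMPA) (-0.43 ± 0.18, adjusted p = 0.679 and 0.71). Ndufaf8 and Ndufaf3, at 1.96 to 5.66 CPM, had the largest non-overlapping values, 0.66 and 0.61, and mt-Atp8, a small subunit of complex V, had -0.36.

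Core genes showed small differences in this comparison. Log2 fold changes were 0.07 ± 0.15 for Ndufs1, 0.00 ± 0.17 for Ndufv1, which binds NADH, 0.12 ± 0.15 for Sdha, 0.03 ± 0.14 for Uqcrc1, 0.22 ± 0.21 for Uqcrfs1, the Rieske iron-sulphur protein of complex III, 0.11 ± 0.18 for Atp5a1 and 0.27 ± 0.15 for Atp5b, the catalytic beta subunit. Among isoforms, Cox6a2 had 0.27 ± 0.25 and Cox6a1 0.17 ± 0.23, Cox7a1 0.25 ± 0.24 and Cox7a2 -0.04 ± 0.21, Cox8b 0.17 ± 0.23 and Cox8a 0.05 ± 0.16. Of the mt- genes, mt-Nd1 had -0.24 ± 0.19, mt-Nd4 -0.19 ± 0.20, mt-Cytb -0.21 ± 0.19, mt-Co1 -0.05 ± 0.20 and mt-Atp6 -0.14 ± 0.19. None of these had an unadjusted p under 0.05.

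R403Q-EMPA vs. R403Q-CD asks what the drug diet goes with in mutant hearts. In cardiomyocyte-like nuclei, both genomes had higher sums with the drug: the nuclear sums did not overlap (6651 and 6860.0 against 7599.8 and 7841 CPM), and neither did the mt- sums (8755 and 9482 against 12327 and 13289 CPM). Without the mt- limit both directions turned (log2 ratio of the sums -0.34 for nuclear and -0.299 for mt- genes), as they did without it at a minimum of 2000 UMIs (-0.143 and -0.101). No single member passed: edgeR's quasi-likelihood test called 0 of 107 with Benjamini-Hochberg adjustment, beside 0.251% of all genes, and DESeq2 called 0. By the edgeR test 15 members had an unadjusted p under 0.05, a count to which that share does not apply. The median log2 fold change was 0.14 over the nuclear members (79 of 94 above 0) and 0.43 over the mt- genes (13 of 13 above 0, range 0.14 to 0.62), beside 0.01 over all genes. In raw CPM both R403Q-EMPA libraries were above both R403Q-CD libraries for 71 of 94 nuclear members and 12 of 13 mt- genes, beside 32.7% of all genes, and below for 3 nuclear members and 0 mt- genes, beside 20.5% of all genes.

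Ndufb5, an accessory subunit of complex I, had the smallest p (0.49 ± 0.14, adjusted p = 0.181). Cox7a2l, which takes part in binding complexes III and IV into supercomplexes, had 33.7 and 27.1 CPM (WT-CD), 24.7 and 28.2 CPM (R403Q-CD) and 44.9 and 36.3 CPM (R403Q-EMPA) (0.55 ± 0.15, adjusted p = 0.189), with both R403Q-EMPA libraries above the other 4. Then came mt-Nd6 (0.62 ± 0.18, adjusted p = 0.206). The largest non-overlapping values belonged to assembly factors of complex II, Sdhaf1 with 4.83 and 3.00 CPM (WT-CD), 3.78 and 3.85 CPM (R403Q-CD) and 6.74 and 6.24 CPM (R403Q-EMPA) (0.68 ± 0.27) and Sdhaf4 with 18.4 and 9.23 CPM (WT-CD), 10.9 and 12.4 CPM (R403Q-CD) and 19.3 and 19.7 CPM (R403Q-EMPA) (0.67 ± 0.24). By role, the medians were 0.27 over the 13 assembly factors, 0.15 over 62 accessory and 0.10 over 19 core subunits. On the other side stood Cox7b2 (-0.59 ± 0.41), Ndufb2 (-0.20 ± 0.14) and Atp5e, the epsilon subunit of the ATP synthase (-0.12 ± 0.22). Ndufs1 and Sdha were also slightly below 0, at -0.11 ± 0.15 and -0.06 ± 0.15.

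The 13 mt- genes lay on 1 side of 0 in this comparison. Among them, mt-Nd1 had 1219.9 and 971 CPM (WT-CD), 902 and 962 CPM (R403Q-CD) and 1291 and 1461 CPM (R403Q-EMPA) (0.51 ± 0.19). The level of mt-Nd4 was 1045 and 897 CPM (WT-CD), 778 and 939 CPM (R403Q-CD) and 1156 and 1357 CPM (R403Q-EMPA) (0.50 ± 0.20), that of mt-Cytb, the core of complex III, 1060.3 and 813 CPM (WT-CD), 781 and 840.0 CPM (R403Q-CD) and 1049 and 1219 CPM (R403Q-EMPA) (0.43 ± 0.19). In each of these the R403Q-EMPA libraries lay above both R403Q-CD libraries, and for mt-Cytb within or above the WT-CD range. For mt-Co1 the libraries had 2204 and 1830.2 CPM (WT-CD), 1904 and 2009 CPM (R403Q-CD) and 2793 and 2563 CPM (R403Q-EMPA) (0.39 ± 0.20), and for mt-Atp6, which forms the proton channel of complex V, 916 and 808 CPM (WT-CD), 733 and 839.8 CPM (R403Q-CD) and 1068 and 1212 CPM (R403Q-EMPA) (0.48 ± 0.19). Adjusted p-values by edgeR's quasi-likelihood test were 0.314, 0.333, 0.39, 0.449 and 0.326 in the order named. The median mt- share of a kept cardiomyocyte-like nucleus was 0.778 and 0.844% (R403Q-CD) against 1.16 and 1.25% (R403Q-EMPA). This share counts the UMIs of the same 13 genes, so it restates these values per nucleus and is not a separate measurement.

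R403Q-EMPA vs. WT-CD compares treated mutants with untreated wild-type hearts, so genotype and drug cannot be told apart in it. In cardiomyocyte-like nuclei, edgeR called 2 members higher, in proportion fewer than over all genes. Both are accessory subunits of complex I. Ndufb5 had 62.3 and 55.4 CPM (WT-CD), 64.3 and 63.1 CPM (R403Q-CD) and 99.0 and 87.5 CPM (R403Q-EMPA) (log2 fold change 0.60 ± 0.14 SE, adjusted p = 0.043). Ndufa8, a cysteine-rich subunit on the side of the intermembrane space, had 40.5 and 32.5 CPM (WT-CD), 42.6 and 40.6 CPM (R403Q-CD) and 58.3 and 57.2 CPM (R403Q-EMPA) (0.60 ± 0.14, adjusted p = 0.046). For both genes the R403Q-EMPA libraries lay above the other 4, and the R403Q-CD libraries lay above both WT-CD libraries by a smaller margin. These were 2 of 107 members by edgeR's quasi-likelihood test, a smaller share than the 3.99% of all genes called in the same fit. The calls are thus no excess among the members. By the same test 25 members had an unadjusted p under 0.05, a count to which that share of all genes does not apply. DESeq2 called 2 members as well, beside 5.04% of all genes. They were Ndufb5 (adjusted p = 0.033) and Atp5g1 (adjusted p = 0.040), but not Ndufa8 (adjusted p = 0.058). Both edgeR calls were lost without either R403Q-EMPA library, without either R403Q-CD library (which only lend their spread), with only the groups compared in the fit (adjusted p = 0.12 and 0.116) and with an mt- limit of 1% (adjusted p = 0.144 and 0.139), and the Ndufa8 call was lost without WT-CD replicate 2 (adjusted p = 0.071) and with library totals in place of TMM scaling (adjusted p = 0.051). Without WT-CD replicate 1, 28 members were called, all higher, beside 5.88% of all genes.

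The median log2 fold change in this comparison was 0.26 over 94 nuclear members (86 above 0) and 0.22 over the mt- genes (10 of 13 above 0, range -0.19 to 0.35), beside 0.00 over all genes. Complex I had the highest nuclear median, 0.34, with 0.19, 0.26, 0.26 and 0.23 for complexes II to V. In raw CPM both R403Q-EMPA libraries were above both WT-CD libraries for 49 of 94 nuclear members and 8 of 13 mt- genes, beside 27.7% of all genes, and below for 0 members, beside 18.5% of all genes. Next after the called genes came Atp5g3 (0.55 ± 0.15, adjusted p = 0.072), Atp5g1 with 76.2 and 43.4 CPM (WT-CD), 72.2 and 76.8 CPM (R403Q-CD) and 101 and 97.0 CPM (R403Q-EMPA) (0.68 ± 0.19, adjusted p = 0.083) and Atp5o (0.55 ± 0.16, adjusted p = 0.092). The third gene for subunit c, Atp5g2, had 0.03 ± 0.16. The assembly factors Ndufaf3 and Sdhaf1 had 0.71 ± 0.33 and 0.65 ± 0.27, at low counts. Among core genes Uqcrfs1 had 54.3 and 29.5 CPM (WT-CD), 49.6 and 47.5 CPM (R403Q-CD) and 62.7 and 68.2 CPM (R403Q-EMPA) (0.60 ± 0.21, adjusted p = 0.15) and Atp5b 0.36 ± 0.15, whereas Ndufs1 and Sdha had -0.04 ± 0.15 and 0.06 ± 0.15.

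The order of the libraries in the nuclear sum was close to their order in cytosolic ribosomal proteins, another large group of short, abundant messages. In cardiomyocyte-like nuclei the 87 ribosomal protein genes summed to 2522 and 1443 CPM (WT-CD), 2055 and 2159 CPM (R403Q-CD) and 2626 and 2321 CPM (R403Q-EMPA). Over the 6 libraries Spearman's rho between the 2 sums was 0.829 in cardiomyocyte-like, 0.943 in fibroblast-like, 0.943 in endothelial-like and 0.886 in pericyte-like nuclei, given as a description of libraries that share depth and handling. The nuclear to ribosomal ratio in cardiomyocyte-like nuclei was 2.92 and 3.62 (WT-CD), 3.24 and 3.18 (R403Q-CD) and 2.89 and 3.38 (R403Q-EMPA), with overlapping groups. Both sums were higher in WT-CD replicate 1 than in WT-CD replicate 2, and the part of this shared order in the comparisons was not tested.

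The promoters of Ndufb5 and Ndufa8 are shown because edgeR called these members. That of Cox6a1 is shown because it holds matches to motifs long tied to respiratory genes. Sequences are the 250 bases before the most upstream start of each gene in RefSeq on GRCm38.p6, 5′ to 3′ on the gene's strand; Ndufb5 is at chr3:32736813-32737062 (plus strand), Ndufa8 at chr2:36049339-36049588 (minus strand) and Cox6a1 at chr5:115348959-115349208 (minus strand), and capitals mark motif matches.
Ndufb5: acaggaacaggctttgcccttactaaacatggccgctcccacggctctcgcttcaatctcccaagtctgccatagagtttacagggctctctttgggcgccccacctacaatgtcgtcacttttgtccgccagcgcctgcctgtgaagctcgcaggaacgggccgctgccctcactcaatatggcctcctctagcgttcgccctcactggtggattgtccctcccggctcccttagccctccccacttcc
Ndufa8: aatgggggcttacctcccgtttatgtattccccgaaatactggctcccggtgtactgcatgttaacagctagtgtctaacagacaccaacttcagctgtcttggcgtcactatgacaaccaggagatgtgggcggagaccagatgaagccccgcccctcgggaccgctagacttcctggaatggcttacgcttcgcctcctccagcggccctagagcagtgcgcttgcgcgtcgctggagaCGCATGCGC
Cox6a1: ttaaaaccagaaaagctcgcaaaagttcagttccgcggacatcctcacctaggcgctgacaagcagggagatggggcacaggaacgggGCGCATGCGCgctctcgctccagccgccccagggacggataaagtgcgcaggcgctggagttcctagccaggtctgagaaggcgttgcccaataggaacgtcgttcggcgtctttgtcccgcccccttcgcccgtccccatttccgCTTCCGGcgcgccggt

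Motifs were searched on both strands as exact letters. NRF1, a nuclear regulator of many respiratory genes, was GCGCATGCG, ETS (the core bound by GABP) was CCGGAAG, YY1 was AAGATGGCG, the oestrogen-related receptor motif was TCAAGGTCA and the hypoxia-inducible factor core was ACGTG. Of 100 nuclear members, 82 had an entry among 27025 promoters. NRF1 was found in 7 of the 82 (8.54%) and in 1.48% of all promoters, and ETS in 15 (18.3%) and 7.07%. The receptor motif was in 1 (1.22%) and 0.366%, the hypoxia core in 17 (20.7%) and 16.5%, and YY1 in 0 and 0.592%. Ndufa8 held NRF1 at the end of its window, Cox6a1 held NRF1 on both strands at 1 place and ETS at another, and Ndufb5 held none of the 5. Different motifs overlapped in 0 of the 82 windows. Cox4i1, Cox4i2, Ndufa4l2 and Cox6a2 had no entry.

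Outside cardiomyocytes no member passed in any comparison, and in each of the other 3 classes all 13 mt- genes had a log2 fold change below 0 in R403Q-CD vs. WT-CD. In fibroblast-like nuclei, edgeR's quasi-likelihood test called 0 of 109 members in R403Q-CD vs. WT-CD (0.0% of all genes), 0 in R403Q-EMPA vs. R403Q-CD (0.372%) and 0 in R403Q-EMPA vs. WT-CD (1.23%), with 2, 1 and 5 members at an unadjusted p under 0.05 and 0 calls by DESeq2. The mt- sums were 28105 and 22157 CPM (WT-CD), 18847 and 19848 CPM (R403Q-CD) and 22106 and 30984 CPM (R403Q-EMPA), so both R403Q-CD libraries lay below the other 4. Medians over the mt- genes were -0.42, 0.40 and 0.00 and over nuclear members 0.09, 0.06 and 0.15 in the 3 comparisons. The smallest p-values were those of mt-Atp8 with 157 and 99.7 CPM (WT-CD), 87.7 and 75.9 CPM (R403Q-CD) and 89.1 and 105 CPM (R403Q-EMPA) (-0.64 ± 0.19, adjusted p = 1), of mt-Nd6 (-0.65 ± 0.22) and of Cox6b2, which had at most 1.40 CPM (1.44 ± 0.50 in R403Q-EMPA vs. WT-CD). Cox5a, a subunit close to the catalytic core of complex IV, had 83.6 and 39.4 CPM (WT-CD), 72.8 and 73.1 CPM (R403Q-CD) and 101 and 96.7 CPM (R403Q-EMPA) (0.66 ± 0.26 in R403Q-EMPA vs. WT-CD, adjusted p = 0.297). Ndufaf3 (-0.57 ± 0.35) and Sdhaf4 (-0.51 ± 0.28) had the lowest non-overlapping values in R403Q-EMPA vs. R403Q-CD, the direction opposite to that of Sdhaf4 in cardiomyocytes, a difference that was not tested. UMIs of mt-Atp8 and mt-Nd4l are uncertain, since these genes overlap mt-Atp6 and mt-Nd4.

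In endothelial-like nuclei, edgeR's quasi-likelihood test called 0 of 108 members in R403Q-CD vs. WT-CD (0.0% of all genes), 0 in R403Q-EMPA vs. R403Q-CD (0.242%) and 0 in R403Q-EMPA vs. WT-CD (0.804%), with 2, 0 and 6 at an unadjusted p under 0.05 and 0 calls by DESeq2. The mt- sums were 32771 and 28592 CPM (WT-CD), 25049 and 26489.9 CPM (R403Q-CD) and 28430.0 and 36051 CPM (R403Q-EMPA). Medians over the mt- genes were -0.24, 0.29 and 0.04 and over nuclear members 0.13, 0.04 and 0.17. Sdhaf3, an assembly factor of complex II, had 20.3 and 21.8 CPM (WT-CD), 16.6 and 17.5 CPM (R403Q-CD) and 12.2 and 15.3 CPM (R403Q-EMPA) (-0.65 ± 0.20 in R403Q-EMPA vs. WT-CD, adjusted p = 0.211), and Sdhc, a membrane anchor of the same complex, had 31.4 and 22.5 CPM (WT-CD), 30.4 and 35.9 CPM (R403Q-CD) and 37.7 and 37.4 CPM (R403Q-EMPA) (0.50 ± 0.17, adjusted p = 0.257). Their groups did not overlap, in opposite directions. Cox4i2 and Ndufa4l2 had the largest values in this comparison (0.72 ± 0.40 and 0.68 ± 0.38), at 1.45 to 3.42 CPM and 1.48 to 2.89 CPM, far below their pericyte levels. Among values of R403Q-EMPA vs. R403Q-CD, mt-Nd6 had 0.50 ± 0.23, Sdhd, the other anchor of complex II, 0.45 ± 0.30 and Ndufa8 0.39 ± 0.18.

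In pericyte-like nuclei, edgeR's quasi-likelihood test called 0 of 108 members in R403Q-CD vs. WT-CD (0.0% of all genes), 0 in R403Q-EMPA vs. R403Q-CD (0.613%) and 0 in R403Q-EMPA vs. WT-CD (1.69%), with 5, 11 and 16 at an unadjusted p under 0.05 and 0 calls by DESeq2. The mt- sums were 27566 and 23389 CPM (WT-CD), 20057 and 19957 CPM (R403Q-CD) and 24424 and 32770.0 CPM (R403Q-EMPA). Medians over the mt- genes were -0.35, 0.46 and 0.10 and over nuclear members 0.11, 0.09 and 0.23. In R403Q-EMPA vs. R403Q-CD, mt-Nd1 had 0.54 ± 0.19 and mt-Nd4 0.54 ± 0.19 (adjusted p = 0.324 and 0.325), and Sdhaf3 had 19.1 and 18.9 CPM (WT-CD), 19.3 and 21.5 CPM (R403Q-CD) and 10.8 and 11.9 CPM (R403Q-EMPA) (-0.83 ± 0.29, adjusted p = 0.34). In R403Q-EMPA vs. WT-CD, Atp5d, the delta subunit of the ATP synthase, had 0.76 ± 0.23 and Cox4i1 0.69 ± 0.23 (adjusted p = 0.132 and 0.186). Ndufb11, an accessory subunit of complex I, had the largest value there, 0.80 ± 0.28, and Sdhaf3 and Ndufaf6 had the smallest, -0.71 ± 0.29 and -0.64 ± 0.26. The isoforms highest in the class had values near 0: Cox4i2 had -0.02 ± 0.15, -0.03 ± 0.16 and -0.05 ± 0.16 and Ndufa4l2 -0.09 ± 0.16, 0.18 ± 0.17 and 0.09 ± 0.17 in the 3 comparisons.

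Outside the cardiomyocytes, the count of called members in R403Q-EMPA vs. WT-CD depended most on 1 library. With all 6 libraries in, some other settings gave a few calls, which are listed in the last section. Without WT-CD replicate 1, R403Q-EMPA vs. WT-CD gave 33 calls in fibroblast-like, 31 in endothelial-like and 26 in pericyte-like nuclei, all higher, beside 3.76, 3.69 and 3.75% of all genes called in the same fits. The other comparisons of pericyte-like nuclei gave 4 and 4 calls, beside 0.181 and 1.97% of all genes. In that library the nuclear sums were 4920.3 CPM in fibroblast-like, 6187 in endothelial-like and 6108 in pericyte-like nuclei, the highest of the 6 libraries in each class, and in WT-CD replicate 2 they were 2917, 3336 and 3805, the lowest. Summed red cell messages in cardiomyocyte-like nuclei were 189 and 136 CPM (WT-CD), 173 and 255 CPM (R403Q-CD) and 228 and 114 CPM (R403Q-EMPA), and the 10 cardiomyocyte messages in pericyte-like nuclei were 2769 and 1788 CPM (WT-CD), 3341 and 3229 CPM (R403Q-CD) and 3977 and 3614 CPM (R403Q-EMPA), higher in the mutant groups. Their part in the comparisons was not tested.

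The limit on the mt- share decided what R403Q-CD vs. WT-CD showed in cardiomyocytes. Without it, barcodes were clustered anew, and cardiomyocyte-like barcodes over 5% numbered 217 of 1337 and 681 of 1401 (WT-CD), 2148 of 3090 and 2441 of 3404 (R403Q-CD) and 2773 of 4436 and 1268 of 2872 (R403Q-EMPA). As shares these were 16.2 and 48.6% (WT-CD), 69.5 and 71.7% (R403Q-CD) and 62.5 and 44.2% (R403Q-EMPA): both R403Q-CD libraries were the highest, and WT-CD replicate 2 lay above R403Q-EMPA replicate 2. Barcodes over the limit had a median of 812 to 917 UMIs, against 6907 to 12066.5 at or under it, and their part of the UMIs of the class was 2.69 and 8.39% (WT-CD), 20.3 and 21.5% (R403Q-CD) and 17.3 and 11.02% (R403Q-EMPA). The shares came in separate humps, with most kept nuclei at 0.5 to 2% and most others at 10 to 30%.

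**Figure D3:**
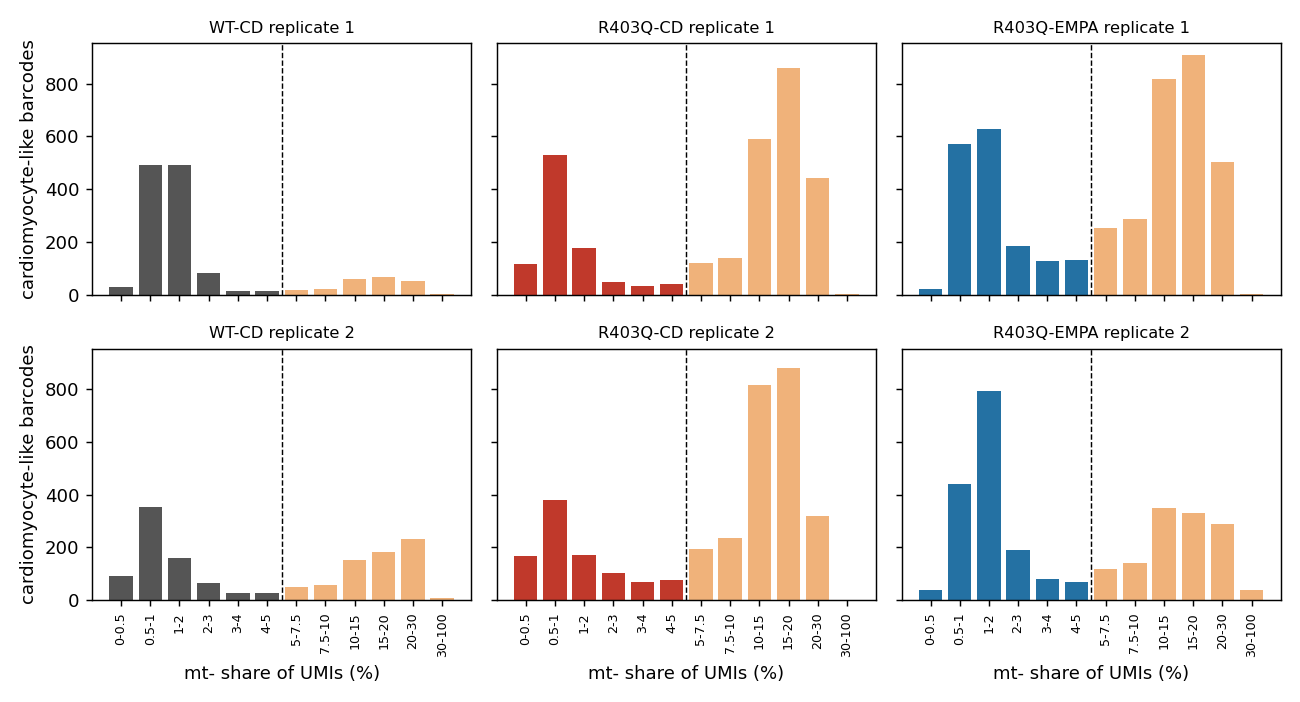
Number of cardiomyocyte-like barcodes (vertical axis) by the share of their UMIs from mt- genes (horizontal axis, %, bins of unequal width), 1 panel per library; the dashed line is the 5% limit and orange bars are barcodes over it. Barcodes over the limit number 217 and 681 (WT-CD), 2148 and 2441 (R403Q-CD) and 2773 and 1268 (R403Q-EMPA), mostly between 10 and 30%.

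With all these barcodes in, 68 of 109 members were called higher in R403Q-CD than in WT-CD and 0 lower, where 3.35% of all genes were called. Nuclear sums were 8423 and 8234 CPM (WT-CD), 16342 and 15490.4 CPM (R403Q-CD) and 13455 and 11748 CPM (R403Q-EMPA), and mt- sums 15041 and 21354 CPM (WT-CD), 38007 and 36896 CPM (R403Q-CD) and 33702 and 27508 CPM (R403Q-EMPA). The called members were 32 of 45 nuclear genes of complex I, 1 of 8 of complex II, 7 of 8 of complex III, 10 of 18 of complex IV and 15 of 17 of complex V, and 3 mt- genes (mt-Nd4l, mt-Nd6 and mt-Atp8). By role they were 52 of 64 accessory subunits, 11 of 19 core subunits and 2 of 13 assembly factors.

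Muscle isoforms were among the called genes. Cox6a2 had 192 and 192 CPM (WT-CD), 524 and 490.5 CPM (R403Q-CD) and 315 and 284 CPM (R403Q-EMPA) (log2 fold change 1.36 ± 0.16 SE, adjusted p = 0.007 by edgeR's quasi-likelihood test). Cox7a1 had 39.1 and 40.8 CPM (WT-CD), 98.3 and 93.3 CPM (R403Q-CD) and 55.7 and 53.6 CPM (R403Q-EMPA) (1.21 ± 0.14, adjusted p = 0.007), and Cox8b 61.1 and 61.6 CPM (WT-CD), 151 and 125 CPM (R403Q-CD) and 85.1 and 65.6 CPM (R403Q-EMPA) (1.12 ± 0.16, adjusted p = 0.008). All 3 were highest in R403Q-CD with no overlap between R403Q-CD and any other group. Their counterparts Cox6a1, Cox7a2 and Cox8a did not pass (0.28 ± 0.23, 0.48 ± 0.17 and 0.41 ± 0.14, adjusted p = 0.592, 0.189 and 0.177). Other called members were Cox4i1 with 266 and 262 CPM (WT-CD), 719.7 and 664 CPM (R403Q-CD) and 600.1 and 432 CPM (R403Q-EMPA) (1.34 ± 0.18), Ndufa4 (1.36 ± 0.16), Uqcrfs1 (1.27 ± 0.16), Atp5b (1.14 ± 0.18), Atp5g1 (1.46 ± 0.20) and Cox5b, a zinc-binding subunit of complex IV with the highest value (1.503 ± 0.18). Ndufs4 (-0.01 ± 0.16), Ndufs1 (0.27 ± 0.15), Sdha (0.28 ± 0.15), Ndufaf4 (-0.09 ± 0.23) and Ndufaf5 (-0.43 ± 0.17) did not pass, nor did mt-Co1 (1.12 ± 0.33, adjusted p = 0.125).

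In R403Q-EMPA vs. R403Q-CD without the limit, directions turned: the nuclear median was -0.38 with 84 of 96 below 0, and the mt- median -0.34 with 13 of 13 below 0. No member was called by edgeR's quasi-likelihood test (0.0465% of all genes were). By the same test 49 nuclear and 3 mt- members had an unadjusted p under 0.05, a count to which that share does not apply. Cox7a1 (-0.85 ± 0.14, adjusted p = 0.071), Atp5e (-0.88 ± 0.13, adjusted p = 0.063) and Cox8b (-0.91 ± 0.16, adjusted p = 0.086) came nearest. In R403Q-EMPA vs. WT-CD 32 nuclear members were called higher, beside 6.56% of all genes. These 3 comparisons share libraries, so the R403Q-CD values enter the first and the second.

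**Figure D4:**
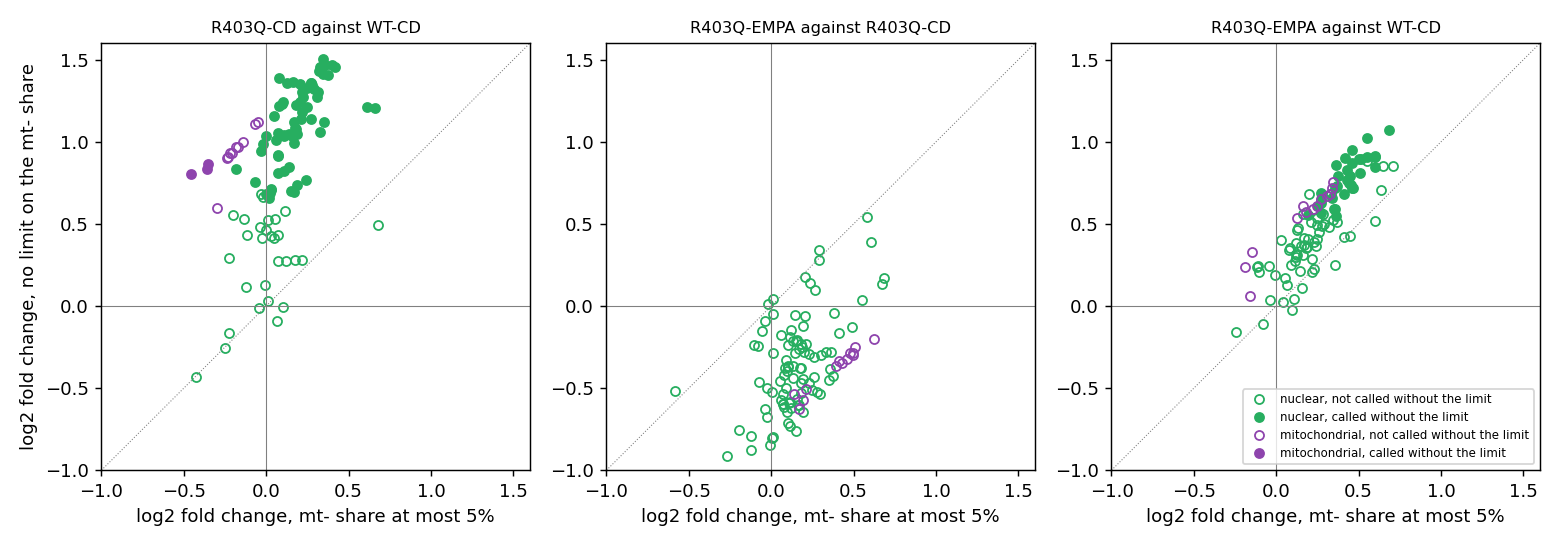
Log2 fold changes of the members in cardiomyocyte-like nuclei with an mt- share of at most 5% (horizontal axis) and with no limit (vertical axis), 1 panel per comparison; each point is a gene, filled where it was called without the limit, and the dotted line marks equal values. In R403Q-CD vs. WT-CD the nuclear median is 0.11 with the limit and 0.96 without it, and in R403Q-EMPA vs. R403Q-CD 0.14 and -0.38.

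Within the barcodes over the limit alone, the groups lay much closer together. Their nuclear members summed to 46719 and 40924 CPM (WT-CD), 54701 and 47122 CPM (R403Q-CD) and 41434 and 42921 CPM (R403Q-EMPA), and their mt- genes to 151896 and 153507 CPM (WT-CD), 153907 and 137634 CPM (R403Q-CD) and 134069.8 and 141391 CPM (R403Q-EMPA). Both R403Q-CD libraries had the highest nuclear sums, replicate 2 close to WT-CD replicate 1, whereas the mt- sums of R403Q-CD and WT-CD overlapped. These barcodes were poor in the nuclear RNA Malat1, at 21484 to 34908 CPM against 93903 to 130053 CPM in kept nuclei, and rich in Mb, at 4695 to 6549.6 CPM against 218 to 371 CPM. Isoform shares differed from those of kept nuclei in every library: Cox6a2 took 92.2 to 96.2% of its pair, Cox7a1 37.8 to 54.7% and Cox8b 68.6 to 84.9%. The share of such barcodes and the levels in the class without the limit were both highest in R403Q-CD, but did not follow each other in every library. WT-CD replicate 2 had a higher share than R403Q-EMPA replicate 2 (48.6 against 44.2%) and lower nuclear and mt- sums. The part of this share in the levels was not tested, nor were the groups tested within these barcodes.

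Members differed in how much higher they were in barcodes over the limit than in kept nuclei. The ratio of CPM, as the median over 6 libraries, was 7.18 at the median of 94 nuclear members and ranged from 0.184 (Cox7b2) to 17.5 (Ndufb11); for the mt- genes, whose UMIs define the split, it was 11.7 to 17.4. Of the nuclear members 61 had a ratio of 5 or more and 5 a ratio under 1. Accessory subunits had a median of 8.41, core subunits 4.35 and assembly factors 1.77, and complexes I to V had 7.21, 2.73, 10.2, 8.29 and 8.98. Cox6a2 had 12.9 and Cox6a1 1.59; Sdha had 2.07, Ndufs4 1.10, Ndufaf4 0.524 and Sdhaf3 0.496. For comparison Malat1 had 0.260, Ttn 1.30 and Mb 18.1.

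Gene length went with this ratio. Across the 94 nuclear members, which are not independent replicates, Spearman's rho with the genomic span in RefSeq (GRCm38.p6) was -0.61. The 5 members spanning 40 kb or more had a median ratio of 0.989 and the other 89 of 7.78. Ndufs4 spans 100.3 kb, Ndufaf2 106 kb and Cox7b2 105 kb, whereas Cox6a2 spans 0.932 kb and Ndufb11 2.29 kb. Among members that depart from this order are Ndufaf4, Ndufb4 and Cox6a1, with low ratios (0.524, 1.27 and 1.59) at 6.92, 6.77 and 3.31 kb.

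**Figure D5:**
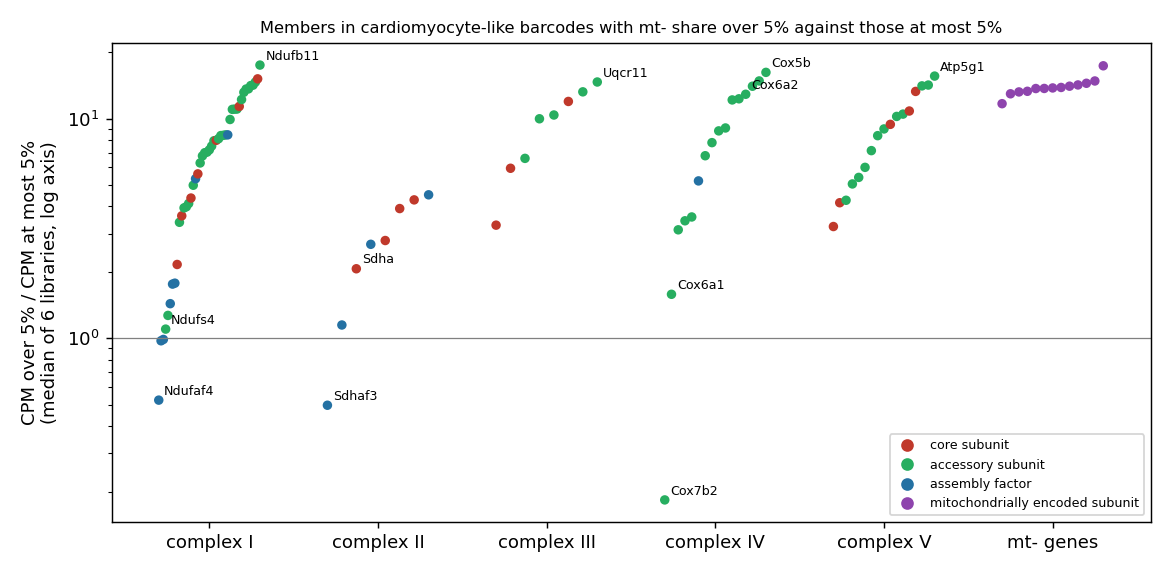
Ratio of a member's CPM in cardiomyocyte-like barcodes over 5% to its CPM in those at most 5% (vertical log axis, median of 6 libraries), by complex and for the mt- genes; each point is a gene, coloured by role. Nuclear members scatter around the nuclear median of 7.18, assembly factors other than Ndufaf3 (8.44) lie below it, and Ndufs4, Cox6a1, Ndufaf4, Sdhaf3 and Cox7b2 lie at 1.59 or less.

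Cardiomyocyte-like nuclei under the limit were themselves of 3 kinds. The largest cluster held 4324 nuclei, the cluster with the highest level of Ryr3 held 1426, and a cluster of low depth held 1189, with a median of 3024 UMIs. The low-depth cluster had 9196 CPM of nuclear members and 25217 of mt- genes, against 6834 and 9628 in the largest cluster. The Ryr3 cluster held 676 and 455 nuclei of R403Q-EMPA, 77 and 157 of R403Q-CD and 40 and 21 of WT-CD. Within each of the 6 libraries its nuclear members summed to less than those of the largest cluster (5106 to 7426 against 5178 to 7908 CPM), and its mt- genes to more in 3 libraries and less in 3. In the low-depth cluster, messages abundant in adipocytes differed between libraries, of which Plin1 and Adipoq are among the listed markers and Car3 and Cyp2e1 were chosen after their values were seen. Car3 had 0 and 101 CPM (WT-CD), 0 and 1.18 CPM (R403Q-CD) and 60.2 and 30.04 CPM (R403Q-EMPA), and Plin1, which coats lipid droplets, 0 and 16.9 CPM (WT-CD), 0 and 0 CPM (R403Q-CD) and 17.4 and 11.1 CPM (R403Q-EMPA). Cyp2e1 had 58.03 and 10.01 CPM in R403Q-EMPA and at most 3.38 CPM elsewhere, and Adipoq at most 3.38 CPM in any library. In the other 2 clusters none of the 4 exceeded 1.63 CPM in a library. The part of adipocyte RNA in the members' values was not tested beyond leaving this cluster out. Leaving out the low-depth cluster kept the calls of Ndufb5 and Ndufa8 (adjusted p = 0.041 and 0.049), an alternative chosen after seeing the data.

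Genes that build and serve the chain were read beside it. In cardiomyocyte-like nuclei, the 42 tested electron carriers, partners and assembly factors outside the symbol rule had medians of -0.06, 0.21 and 0.13 in the 3 comparisons, in the order given above, and 0 were called in any of the 3 by edgeR's quasi-likelihood test (0, 4 and 4 at an unadjusted p under 0.05). Likewise 0 were called of 14 genes of mitochondrial DNA maintenance (medians -0.08, 0.18 and 0.12; 1, 2 and 1 at an unadjusted p under 0.05), 13 nuclear regulators of the chain (0.08, -0.08 and -0.02; 0, 2 and 1 at an unadjusted p under 0.05), 8 of the ADP, ATP and creatine shuttle (0.07, 0.13 and 0.15; 0, 1 and 3 at an unadjusted p under 0.05) and 13 of the tricarboxylic acid cycle (0.14, 0.14 and 0.22; 0, 2 and 5 at an unadjusted p under 0.05). Of 78 mitochondrial ribosome genes (-0.06, 0.26 and 0.20; 1, 17 and 13 at an unadjusted p under 0.05) 1 was called, Mrps6, in R403Q-EMPA vs. WT-CD. Cycs, which encodes cytochrome c, had 0.67 ± 0.17 in R403Q-EMPA vs. WT-CD (adjusted p = 0.065), Tfam, which packages and transcribes mitochondrial DNA, had 0.43 ± 0.19 in R403Q-EMPA vs. R403Q-CD (adjusted p = 0.382), and Ppargc1a, a coactivator of mitochondrial biogenesis, had -1.001 ± 0.29 there (adjusted p = 0.206).

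Mrps6, a protein of the small subunit of the mitochondrial ribosome, was the exception in every tested class. It had 23.2 and 23.8 CPM (WT-CD), 24.5 and 29.5 CPM (R403Q-CD) and 53.4 and 45.1 CPM (R403Q-EMPA) in cardiomyocyte-like and 28.3 and 19.2 CPM (WT-CD), 23.2 and 28.6 CPM (R403Q-CD) and 83.4 and 77.6 CPM (R403Q-EMPA) in pericyte-like nuclei. In fibroblast-like and endothelial-like nuclei its R403Q-EMPA levels were 60.2 and 69.6 CPM and 50.9 and 48.5 CPM, above every library of the other groups. It was called higher in R403Q-EMPA vs. WT-CD in all 4 classes (in cardiomyocyte-like nuclei 0.99 ± 0.16, adjusted p = 0.013) and in R403Q-EMPA vs. R403Q-CD in fibroblast-like, endothelial-like and pericyte-like nuclei; in cardiomyocyte-like nuclei the latter did not pass (0.80 ± 0.16, adjusted p = 0.085). Among the lists kept for free RNA, Alas2, the red cell enzyme of haem synthesis, fell in cardiomyocyte-like nuclei in R403Q-EMPA vs. WT-CD (-1.56 ± 0.32, adjusted p = 0.029). The cardiomyocyte messages Ttn and Myh6 rose in pericyte-like nuclei in the same comparison (1.04 ± 0.17, adjusted p = 0.003 and 0.67 ± 0.14, adjusted p = 0.020).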

How the data were processed

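Single-nucleus RNA was measured in 6 libraries. The deposited files are UMI counts per gene and barcode, which the authors made with Cell Ranger 8.0.1 on GRCm39 according to the submitters' processing notes; replicates were not pooled. Fixed limits kept barcodes with at least 500 UMIs, 300 genes and at most 5% mt- UMIs. Scrublet in scanpy 1.11.5 (Python 3.11.15) removed doublets per library. Nuclei were clustered (2000 variable genes, 30 principal components, 15 neighbours, Leiden resolution 1) and classes named from fixed markers. No free RNA was subtracted. UMIs were summed per library and class, which gives CPM and the counts tested.

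edgeR 4.0.16 (R 4.3.3) fitted quasi-likelihood models to the counts of all 6 libraries (filterByExpr, TMM, 3 residual degrees of freedom), and p-values were adjusted by Benjamini-Hochberg over all genes tested in a class and comparison, with calls at an adjusted p under 0.05. On simulated counts for cardiomyocyte-like nuclei (14359 genes), calls recovered 46 to 60.2% of genes changed by 1 and 89.3 to 95.9% of those changed by 2 on the log2 scale, so smaller differences can be missed. DESeq2 1.42.0, other limits and filters, and fits without each library were alternatives. Replicates of a group differed by more than sampling noise (chi-square per degree of freedom 8.50 in R403Q-CD, 46.4 in R403Q-EMPA and 61.5 in WT-CD).

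Members and gene lists were chosen with earlier results of these data known. Named in comparisons were the mt- genes, the isoform groups, set core genes, every called member, the 3 smallest p-values and the non-overlapping extremes of each comparison, of which examples are given; genes named without the mt- limit and in barcodes over it were chosen after their values were seen. The inhibitor Atpif1 does not fall under the symbol rule. Ribosomal protein genes were taken by symbol without the Rps6k kinases. Sequences come from RefSeq tables of GRCm38.p6, used for these and for gene spans only.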

Additional observations from a re-analysis of the deposited data

Results flagged for a closer look

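The same contrast had opposite directions in different classes once the limit on the mt- share was lifted, with every library of a class on its side; the difference was not tested. For the 100 nuclear members in R403Q-EMPA vs. R403Q-CD, the log2 ratio of summed CPM was -0.34 in cardiomyocyte-like nuclei, against 0.229 in fibroblast-like, 0.172 in endothelial-like and 0.262 in pericyte-like nuclei. For the 13 mt- genes in the same contrast it was -0.299 in cardiomyocyte-like nuclei, against 0.576, 0.519 and 0.712 in those 3 classes. For the mt- genes in R403Q-CD vs. WT-CD it was 1.06 in cardiomyocyte-like nuclei, against -0.445, -0.426 and -0.489. With the limit, no such opposite directions were found.

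The barcodes that the limit sets aside hold a signal outside the main measurement. Cardiomyocyte-like barcodes over 5% numbered 2148 and 2441 (R403Q-CD) and 2773 and 1268 (R403Q-EMPA), above the 217 and 681 of WT-CD. The classes differ in size, and as shares of the class those of R403Q-CD (69.5 and 71.7%) lay above the other 4 libraries, while WT-CD (16.2 and 48.6%) and R403Q-EMPA (62.5 and 44.2%) overlapped. No explanation of these counts was tested.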

How the results depend on the processing

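Counts of called members are given for cardiomyocyte-like nuclei with R403Q-CD vs. WT-CD first, the drug comparison in mutants second and R403Q-EMPA vs. WT-CD last, beside 0, 0 and 2. The share of all genes called in the same fit follows in parentheses, except for fits that leave out a library. For those without WT-CD replicate 1 the shares are given with the counts above. Without the mt- limit they were 68 (3.35%), 0 (0.0465%) and 32 (6.56%); with no limit but at least 2000 UMIs, chosen after seeing the data, 13 (0.26%) in the first and 9 (3.54%) in the last; with a limit of 10%, also chosen then, 6 (3.05%) in the last, and with 1%, 0. With no low-count filter they were 2 (2.8%) in the second and 8 (5.84%) in the last; with library totals in place of TMM 1 (3.35%) and with only the groups compared 0 in the last. Leaving out a library, which leaves 1 library assumed to vary like the other groups, gave 0 to 28 in the last. In the other classes, beside 0 throughout, no low-count filter gave 3 (0.404%) and 3 (4.45%) in the first and last of fibroblast-like, 1 (3.27%) in the last of endothelial-like and 5 (1.22%) and 2 (2.05%) in the second and last of pericyte-like nuclei, where a fit of only the groups compared gave 1 (1.79%) in the second. Leaving out a library gave 0 to 33 in fibroblast-like, 0 to 31 in endothelial-like and 0 to 26 in pericyte-like nuclei in R403Q-EMPA vs. WT-CD, and 0 to 4 in pericyte-like nuclei in each of the other comparisons, the highest values always without WT-CD replicate 1.

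Log2 ratios of summed CPM in cardiomyocyte-like nuclei moved with the mt- limit. For nuclear members they were 0.9339, -0.3397 and 0.5942 without a limit, 0.5774 and -0.1429 (first and second) at 2000 UMIs, and 0.1512 (second) at 10%. For mt- genes they were 1.063, -0.2985 and 0.7646 without a limit, 0.644, -0.101 and 0.5431 at 2000 UMIs, 0.1185, 0.4025 and 0.521 at 10%, and 0.299 and 0.101 (second and last) at 1%. The cause was not tested. The 1% limit could not be fitted in endothelial-like and pericyte-like nuclei, where libraries held under 20 nuclei. No paired analysis was possible because replicate numbers name libraries and no label ties libraries of different groups together. The other settings kept counts within 1.5 times and ratios within 1 SD. At 2 libraries per group and 812 to 917 UMIs per barcode over the limit, small differences are not detectable.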
